A study of Sus scrofa with 4 samples.

Results

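The genes described here encode the enzymes that take glucose to lactate, the carriers that bring in glucose and move lactate, the kinases that switch off pyruvate dehydrogenase, enzymes of the pentose phosphate pathway, and the hypoxia-induced mitophagy receptor BNIP3. They were given as a list of 34 symbols and were matched to rows of a porcine read count table of 25880 genes by Ensembl identifier or, where that gave no symbol, by position on the Sscrofa11.1 assembly. Each of the 34 symbols had a row, and 31 were counted in the results. The TPI1 row was set apart because it held few counts and shared most of its exon bases with other gene models, and the SLC2A1 and ENO3 rows because they took in a further gene, P3H1 and SPAG7, that had no row of its own. Their values are given last. Among the 31 counted rows, those of ALDOC, GAPDH, ENO2, PDK2 and TALDO1 also had less than 50% of their exon bases within the annotated gene.

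RNA was sequenced from 4 cultures of pig cells that covered steps of reprogramming. The iPSCs (2 clones, passage 3) were kept in the pluripotency medium ESM, to which activin A, TGF-β1 and IWP2, an inhibitor of WNT secretion, had been added. The iNSLCs, induced neural stem cell-like cells (n = 1, passage 1), were dome-shaped colonies that grew in NSM, a medium used for naive-state cells, after the EP-B episomal vectors had been introduced. These vectors carry OCT4, SOX2, KLF4, L-MYC, LIN28, a dominant-negative p53, KLF2, NANOG, GLIS1, KDM4D and EGFP, and whether any vector remained in the sequenced cultures was not analysed here. The fibroblasts (n = 1, passage 1) were the starting cells and came from ear skin of a post-neonatal pig named N01F. All cultures derived from this 1 animal, so no p-value covers differences between animals. The p-values tested differences between groups, and the only replicate spread behind them was that between the 2 clones. The test took the same spread for iNSLCs and fibroblasts, which had 1 library each.

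Glycolysis splits glucose into pyruvate in the cytosol, and lactate dehydrogenase then interconverts pyruvate and lactate. Many steps are catalysed by isozymes that are encoded by separate genes and used in different proportions by different tissues. The pentose phosphate pathway branches off at glucose 6-phosphate and yields NADPH and ribose. Pluripotent stem cells are known for active glycolysis in the presence of oxygen, and several of these genes are textbook targets of the hypoxia-inducible factors.

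The libraries held 21640374 and 41296933 counts (iPSC clones 1 and 2), 25784594 counts (iNSLCs) and 62421521 counts (fibroblasts). Levels are CPM after TMM scaling, that is, counts relative to the scaled library total. The pluripotency gene POU5F1 (OCT4) lay at 295 and 275 CPM in the iPSC clones, 40.5 CPM in iNSLCs and 0 counts in fibroblasts. The EP-B vectors also carry OCT4, and whether vector transcripts added to these counts was not tested. Of the neural stem markers, FABP7 was highest in iNSLCs at 83.0 CPM, NES and MSI1 were high in iPSCs and iNSLCs, and PAX6 was highest in fibroblasts at 21.5 CPM, so that PAX6 did not mark the iNSLCs. The 7 fibroblast markers took 0.0967% and 0.100% of the counts in the iPSC clones, 5.85% in iNSLCs and 10.2% in fibroblasts, and the iNSLC library thus still held abundant matrix transcripts. In such bulk libraries, fewer cells of a type and less RNA per cell cannot be told apart.

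Relative to fibroblasts, iPSCs had more of the glucose carrier SLC2A3 (45.1-fold), the lactate carrier SLC16A1 (3.17-fold), the enolase ENO2 (14.1-fold), the lactate dehydrogenase subunit LDHB (2.39-fold) and the pyruvate dehydrogenase kinase PDK4, and less of the subunits PFKP (3.53-fold lower) and LDHA (2.69-fold lower). Of the 31 genes, 8 rose and 8 fell in iPSCs (edgeR quasi-likelihood test, adjusted p under 0.05), beside 29.6% and 27.5% of the 15739 genes tested. The 8 that rose (PFKM, ENO2, LDHB, SLC2A3, SLC16A1, PDK4, PFKFB3 and TKT) were also called higher with scaling to total counts and in the 3 other fits tried. Of the 8 that fell (HK2, PFKP, ENO1, PKM, LDHA, PDK2, PGD and TALDO1), only PFKP and LDHA were called lower in all 5 fits. Over the 26 rows with at least 50% of their exon bases in the annotated gene, 7 rose and 6 fell.

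With scaling to total counts, 14 of the 31 rose and 2 fell, beside 44.9% and 16.8% of all genes. The 6 added to those that rose were HK1, PFKL, ALDOC, PGAM1, PDK3 and RPIA. TMM shifted the log2 ratio of iPSCs over fibroblasts by -0.57 relative to total counts, and this changed the sign of 9 of the 31 (HK2, GPI, ALDOA, GAPDH, PGK1, ENO1, PFKFB4, BNIP3 and TALDO1). The same shift for iNSLCs over fibroblasts was -0.58. The 7 fibroblast markers took 0.0967% and 0.100% of the counts in the iPSC clones, 5.85% in iNSLCs and 10.2% in fibroblasts. The part of matrix transcripts in these shifts was not tested. The median log2 ratio of the 31 genes was -0.03 with TMM and 0.55 with total counts, beside 0.11 and 0.68 over all genes tested, and with TMM it was -0.38 without clone 2.

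**Figure D1:**
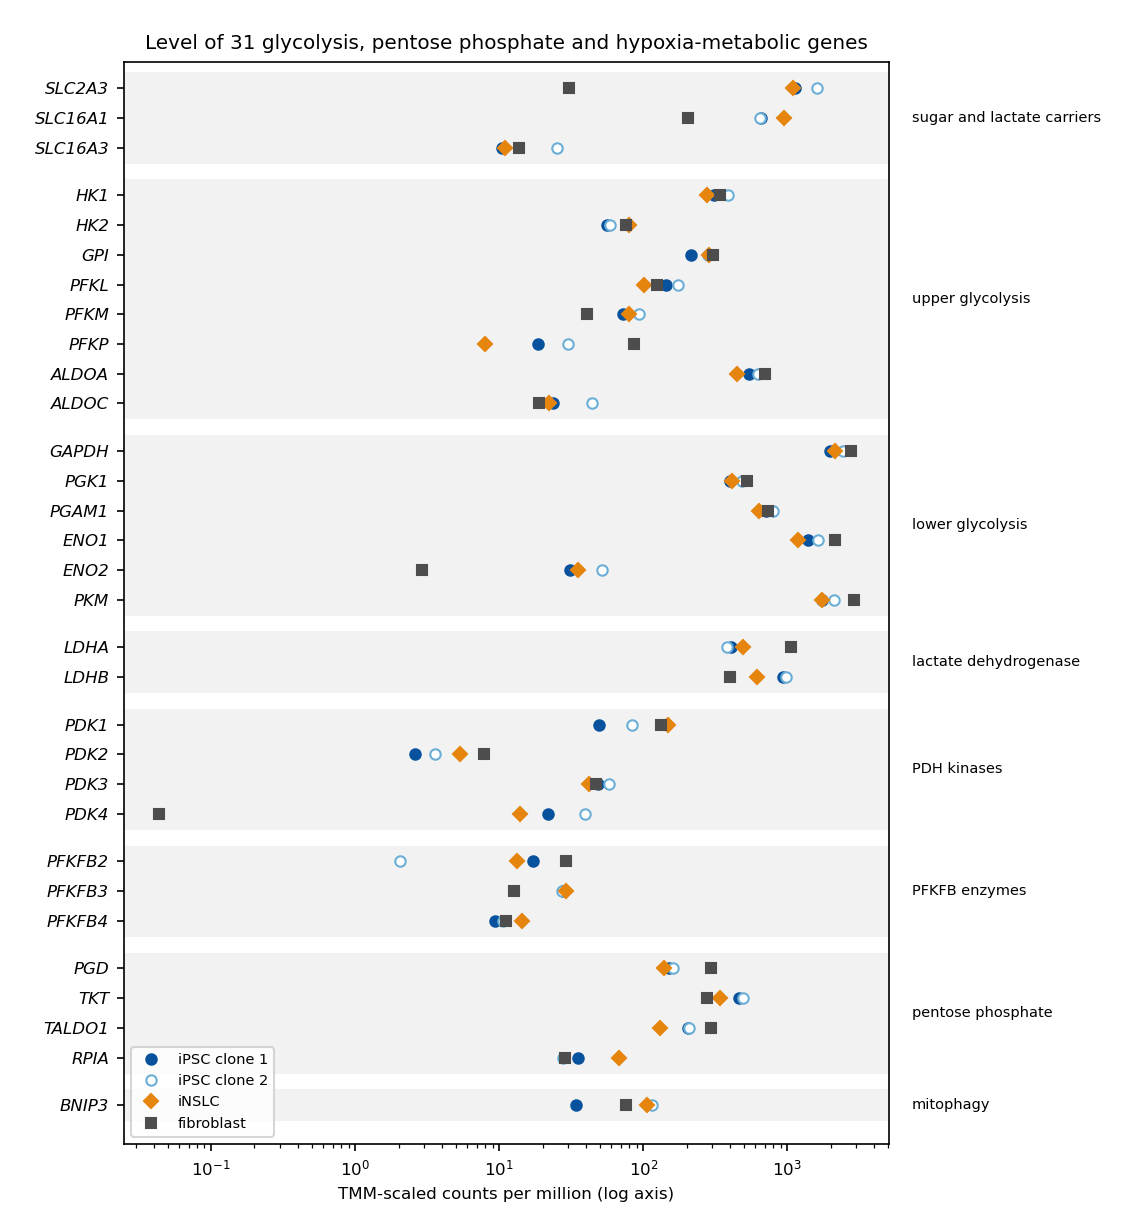
Level of each of the 31 counted genes (rows, grouped by role) in iPSC clone 1, iPSC clone 2, iNSLCs and fibroblasts, as TMM-scaled CPM on a log axis; each point is 1 library. The fibroblast library lies far below the others at PDK4, SLC2A3 and ENO2, and the iPSC clones lie farthest apart at PFKFB2 (17.1 and 2.05 CPM).

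SLC2A3 (GLUT3), a high-affinity glucose transporter typical of neurons and early embryos, lay at 1132 and 1607 CPM in the iPSC clones, 1087 CPM in iNSLCs and 30.4 CPM in fibroblasts. All 3 reprogrammed cultures were thus far above the fibroblast library, with iNSLCs just below the lower clone. SLC2A3 (ENSSSCG00000022925, chr5:62963640-63041739) rose in iPSCs relative to fibroblasts by a log2 ratio of 5.50 ± 0.32 (SE; adjusted p = 0.0004), and the ratio of iNSLCs over fibroblasts was 35.8 (95% counting interval 33.9 to 37.8). Between iPSCs and iNSLCs it did not pass the test (log2 ratio 0.33 ± 0.24 SE, adjusted p = 0.334).

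SLC16A1 (MCT1), which carries lactate and pyruvate across the plasma membrane, was highest in iNSLCs. Its levels were 656 and 643 CPM in the iPSC clones, 954 CPM in iNSLCs and 205 CPM in fibroblasts. SLC16A1 (ENSSSCG00000006771, chr4:107510915-107638389) rose in iPSCs relative to fibroblasts (log2 ratio 1.66 ± 0.12 SE, adjusted p = 0.000699) and was lower in iPSCs than in iNSLCs (log2 ratio -0.56 ± 0.11 SE, adjusted p = 0.0271). The ratio of iNSLCs over fibroblasts was 4.65 (95% counting interval 4.54 to 4.76). Of the exon bases of this row, 54.27% lay within the annotated SLC16A1 and 20.03% in other annotated genes, among them LOC100156854. SLC16A3 (MCT4), the lactate exporter of highly glycolytic cells, lay at 10.5 and 25.0 CPM in the iPSC clones, 10.9 CPM in iNSLCs and 13.7 CPM in fibroblasts, with a clone on either side of both other libraries, and passed neither test.

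Hexokinases trap glucose in the cell by phosphorylation. HK1, the broadly expressed form, lay at 308 and 384 CPM in the iPSC clones, 277 CPM in iNSLCs and 343 CPM in fibroblasts, and passed neither test. HK2, the inducible form, was lower in both iPSC clones than elsewhere, at 56.0 and 58.8 CPM in iPSCs, 80.0 CPM in iNSLCs and 76.3 CPM in fibroblasts. Its log2 ratio was -0.41 ± 0.12 (SE; adjusted p = 0.0377) against fibroblasts, which turned to 0.16 with total counts, and -0.48 ± 0.12 (SE; adjusted p = 0.0443) against iNSLCs. DESeq2 called neither HK2 difference (adjusted p = 0.122 against fibroblasts and 0.137 against iNSLCs). GPI, which converts glucose 6-phosphate to fructose 6-phosphate, lay at 216 and 281 CPM in the iPSC clones, 286 CPM in iNSLCs and 302 CPM in fibroblasts, and passed neither test.

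Phosphofructokinase, a main control point of glycolysis, is built from liver (PFKL), muscle (PFKM) and platelet (PFKP) subunits. PFKP lay at 18.5 and 30.0 CPM in the iPSC clones, 7.99 CPM in iNSLCs and 85.5 CPM in fibroblasts. PFKP (ENSSSCG00000011158, chr10:67021453-67082534) fell in iPSCs relative to fibroblasts (log2 ratio -1.81 ± 0.29 SE, adjusted p = 0.00672) but was higher in iPSCs than in iNSLCs (log2 ratio 1.61 ± 0.35 SE, adjusted p = 0.0321). In iNSLCs it was 10.7-fold lower than in fibroblasts (ratio 0.0935, 95% counting interval 0.0814 to 0.107).

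PFKM ran opposite to PFKP relative to fibroblasts, with 72.1 and 93.0 CPM in the iPSC clones, 79.6 CPM in iNSLCs and 40.8 CPM in fibroblasts. PFKM (ENSSSCG00000021129, chr5:78475468-78526997) rose in iPSCs relative to fibroblasts (log2 ratio 1.02 ± 0.20 SE, adjusted p = 0.0115), and the iNSLC level lay between the clones. Of the PFKM exon bases, 16.89% were shared with gene models on the opposite strand, as were 15.4% of the PFKP exon bases. PFKL lay at 143 and 174 CPM in the iPSC clones, 101 CPM in iNSLCs and 125 CPM in fibroblasts, and was higher in iPSCs than in iNSLCs (log2 ratio 0.65 ± 0.17 SE, adjusted p = 0.0484), a call that was lost without the low-count filter (adjusted p = 0.0517). The skeletal muscle markers MYOG and MYOD1 lay at 0.45 CPM or less in all 4 libraries, and the 5 muscle markers summed to 49.8 and 44.7 CPM in the iPSC clones, 33.4 CPM in iNSLCs and 41.0 CPM in fibroblasts. Of the 4 muscle markers tested, 2 rose in iPSCs relative to fibroblasts (ACTA1, log2 ratio 9.0, and MYH3, 4.04), and the median log2 ratio of the 4 was 4.99. The markers did not all move together. DES made up most of the fibroblast sum and was lower in iPSCs, though not called with TMM. With RLE scaling, 1 of the 4 was called lower. The skeletal actin ACTA1 lay at 32.0 and 37.6 CPM in the iPSC clones, 0.628 CPM in iNSLCs and 0.0648 CPM in fibroblasts. ACTA1 and PFKM were thus both higher in iPSCs than in fibroblasts. In iNSLCs, PFKM (79.6 CPM) lay between the clones while ACTA1 lay far below them. The part of muscle transcripts in the PFKM values was not tested.

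Aldolase splits the phosphorylated sugar into triose phosphates. ALDOA, the muscle and general form, lay at 540 and 625 CPM in the iPSC clones, 450.0 CPM in iNSLCs and 702 CPM in fibroblasts, and ALDOC, the brain form, at 23.6 and 44.2 CPM in the iPSC clones, 22.0 CPM in iNSLCs and 19.0 CPM in fibroblasts. Neither passed a test with TMM scaling, while ALDOC was called higher in iPSCs than in fibroblasts with total counts (log2 ratio 1.41, adjusted p = 0.0307). The ALDOC model shared 58.32% of its exon bases with SPAG5, a mitotic spindle gene, and had 29.14% within the annotated ALDOC.

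GAPDH, PGK1 and PGAM1 take triose phosphate on towards pyruvate. GAPDH, the dehydrogenase, lay at 1967 and 2444 CPM in the iPSC clones, 2146 CPM in iNSLCs and 2750 CPM in fibroblasts. The phosphoglycerate kinase PGK1 lay at 399 and 484 CPM in the iPSC clones, 414 CPM in iNSLCs and 527 CPM in fibroblasts, and the phosphoglycerate mutase PGAM1 at 707 and 797 CPM in the iPSC clones, 630 CPM in iNSLCs and 735 CPM in fibroblasts. None of these 3 genes passed a test with TMM scaling, and the TMM and total-count log2 ratios of GAPDH (-0.32 and 0.25) and PGK1 (-0.26 and 0.31) against fibroblasts had opposite signs. Of the exon bases of the GAPDH row, 49.2% lay within the annotated GAPDH and 50.8% in other annotated genes.

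ENO1, the general enolase, lay at 1381 and 1622 CPM in the iPSC clones, 1178 CPM in iNSLCs and 2157 CPM in fibroblasts. Its log2 ratio in iPSCs over fibroblasts was -0.52 ± 0.14 (SE; adjusted p = 0.0309) with TMM and 0.05 with total counts (adjusted p = 0.793). PKM, the pyruvate kinase of most tissues other than liver, lay at 1749 and 2091 CPM in the iPSC clones, 1743 CPM in iNSLCs and 2898 CPM in fibroblasts. Its log2 ratio in iPSCs over fibroblasts was -0.59 ± 0.15 (SE; adjusted p = 0.0235) with TMM and -0.02 with total counts (adjusted p = 0.905). The lower ENO1 and PKM levels in iPSCs thus held with TMM scaling and not with total counts.

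ENO2, the neuronal enolase, stood apart from ENO1. It lay at 30.8 and 51.6 CPM in the iPSC clones, 35.2 CPM in iNSLCs and 2.92 CPM in fibroblasts. ENO2 (ENSSSCG00000028373, chr5:63796230-63836640) rose in iPSCs relative to fibroblasts (log2 ratio 3.82 ± 0.42 SE, adjusted p = 0.00208), and the ratio of iNSLCs over fibroblasts was 12.1 (95% counting interval 10.1 to 14.6). Per kilobase, it still made up only 0.774% and 1.10% of the ENO1 and ENO2 sum in the iPSC clones, 1.04% in iNSLCs and 0.0473% in fibroblasts. The 4 neuron markers summed to 226 and 228 CPM in the iPSC clones, 611 CPM in iNSLCs and 11.5 CPM in fibroblasts, led by STMN2 and TUBB3. Of them, 3 rose in iPSCs relative to fibroblasts and DCX fell. Against iNSLCs, 2 were lower in iPSCs and 0 higher, whereas ENO2 did not pass the edgeR test (log2 ratio 0.23, adjusted p = 0.631). The part of neuron-like cells in the ENO2 values was not tested. Of the exon bases of the ENO2 row, 32.94% lay within the annotated ENO2 and 11.63% in other annotated genes, and 12.04% were shared with the models of LRRC23, TPI1 and SPSB2, so that these values may include other transcripts.

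The lactate dehydrogenase subunits changed in opposite directions. LDHA, whose tetramer favours lactate formation, lay at 409 and 379 CPM in the iPSC clones, 495 CPM in iNSLCs and 1061 CPM in fibroblasts. LDHB, whose tetramer favours lactate use, lay at 927 and 974 CPM in the iPSC clones, 614 CPM in iNSLCs and 398 CPM in fibroblasts. For both genes the iNSLC library lay between both iPSC clones and the fibroblast library.

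LDHA (ENSSSCG00000013366, chr2:40813963-40826715) fell in iPSCs relative to fibroblasts (log2 ratio -1.43 ± 0.12 SE, adjusted p = 0.000909) and did not pass the test against iNSLCs (log2 ratio -0.33 ± 0.12 SE, adjusted p = 0.106). In iNSLCs it was 2.14-fold lower than in fibroblasts (ratio 0.467, 95% counting interval 0.458 to 0.475), but 0.699 times the fibroblast level with total counts. LDHB (ENSSSCG00000000576, chr5:51810967-51831490) rose in iPSCs relative to fibroblasts (log2 ratio 1.26 ± 0.12 SE, adjusted p = 0.00148) and was higher in iPSCs than in iNSLCs (log2 ratio 0.63 ± 0.12 SE, adjusted p = 0.0235). The identifier table gives the name LDHB to another row, a locus of 2 exon blocks at chr2:12988754-12990030 that lay at 3.21 and 4.11 CPM in the iPSC clones, 2.79 CPM in iNSLCs and 1.71 CPM in fibroblasts. It was not used for LDHB.

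The balance of isozymes within a library does not depend on how libraries are scaled, and it differed between the libraries in several families. Per kilobase of gene length, LDHB made up 80.6% and 82.5% of the LDHA and LDHB sum in the iPSC clones, 69.5% in iNSLCs and 40.8% in fibroblasts. PFKP made up 8.27% and 10.7% of the phosphofructokinase sum in the iPSC clones, 4.68% in iNSLCs and 34.3% in fibroblasts, and PFKM 20.7% and 21.2% in the iPSC clones, 29.9% in iNSLCs and 10.5% in fibroblasts. LDHB was thus the leading subunit in both iPSC clones and in iNSLCs, and LDHA in fibroblasts. PFKL led phosphofructokinase in every library, at 71.0% and 68.1% in the iPSC clones, 65.4% in iNSLCs and 55.2% in fibroblasts. HK1, ALDOA, ENO1 and SLC16A1 likewise led their families in all 4 libraries, with HK1 at 88.0% and 89.7% in the iPSC clones, 82.2% in iNSLCs and 85.7% in fibroblasts.

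**Figure D2:**
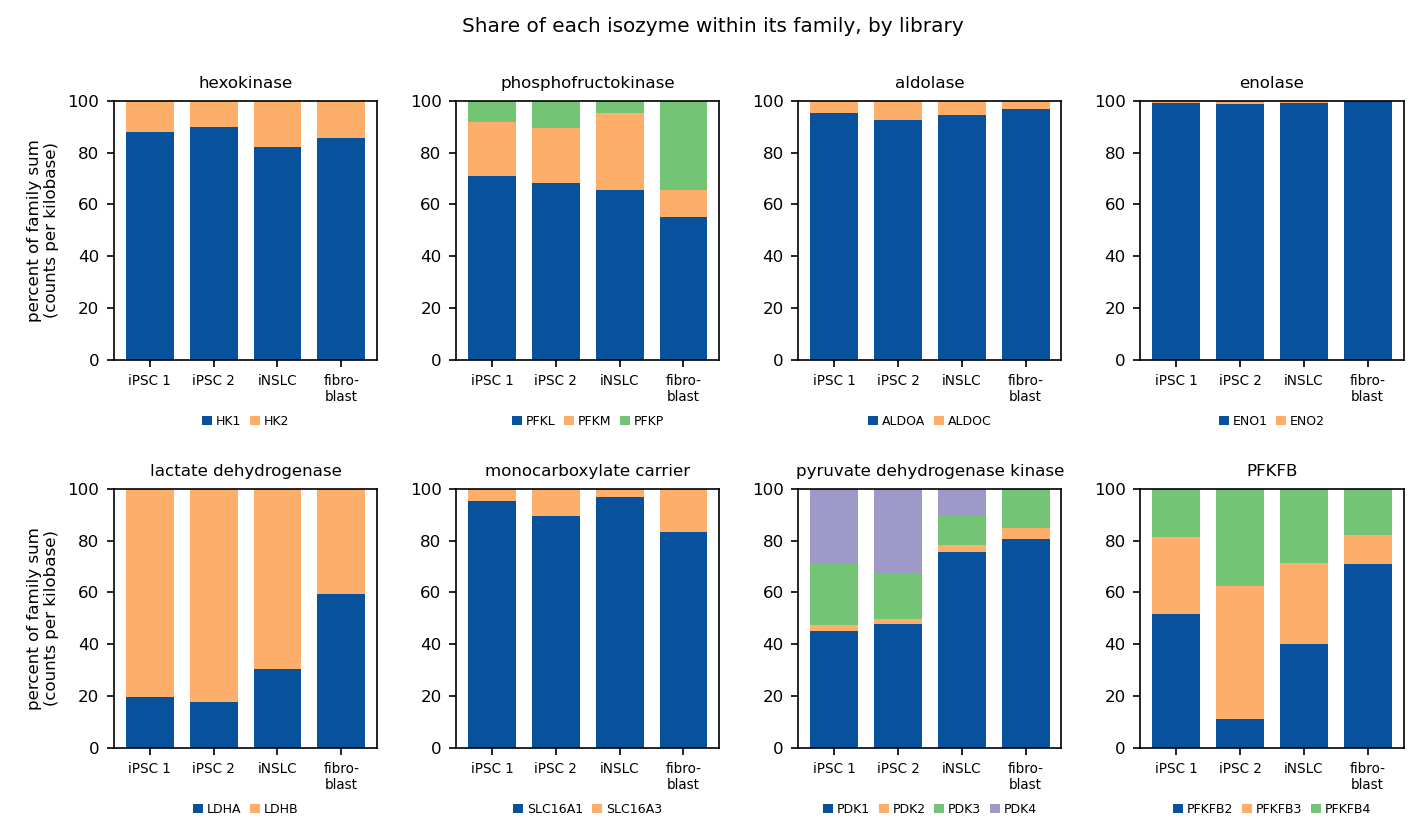
Share of each isozyme in the summed counts per kilobase of its family (vertical axis, percent) in iPSC clones 1 and 2, iNSLCs and fibroblasts, for 8 families; each bar is 1 library. LDHB holds 80.6% and 82.5% of the lactate dehydrogenase bar in the iPSC clones, 69.5% in iNSLCs and 40.8% in fibroblasts, and PDK4 is visible in every library but the fibroblast one.

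The pyruvate dehydrogenase kinases phosphorylate and switch off the complex that feeds pyruvate into the mitochondria. PDK4, the form induced by fasting, had 514 and 1815 counts in the iPSC clones, 400.0 counts in iNSLCs and 2 counts in fibroblasts. This put it at 21.7 and 39.7 CPM in the iPSC clones and 14.0 CPM in iNSLCs, with the fibroblast library close to no signal. PDK4 (ENSSSCG00000015334, chr9:75246952-75260137) rose in iPSCs relative to fibroblasts (log2 ratio 9.37 ± 0.78 SE, adjusted p = 0.000966; 8.39 without clone 2), and the ratio of iNSLCs over fibroblasts was 323 with a 95% counting interval of 88.9 to 2678. Against iNSLCs it did not pass the test (log2 ratio 1.14 ± 0.41 SE, adjusted p = 0.105).

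PDK1, the hypoxia-induced form, ran the other way and was lower in both clones than in the other libraries, at 48.9 and 83.7 CPM in iPSCs, 148 CPM in iNSLCs and 133 CPM in fibroblasts. It missed the threshold against fibroblasts (log2 ratio -1.0 ± 0.32 SE, adjusted p = 0.0504) and against iNSLCs (log2 ratio -1.15 ± 0.32 SE, adjusted p = 0.0584), while DESeq2 called it lower in both comparisons (adjusted p = 0.00428 and 0.00291). PDK2 lay at 2.62 and 3.58 CPM in the iPSC clones, 5.30 CPM in iNSLCs and 7.80 CPM in fibroblasts. It passed the test against fibroblasts with TMM (log2 ratio -1.32 ± 0.33 SE, adjusted p = 0.0253), but neither with total counts (-0.75, adjusted p = 0.119) nor with DESeq2 (adjusted p = 0.0807), and 52.24% of its exon bases were shared with SAMD14 on the opposite strand, against 47.67% within the annotated PDK2. PDK3 lay at 48.5 and 58.2 CPM in the iPSC clones, 42.2 CPM in iNSLCs and 47.3 CPM in fibroblasts, and passed neither test with TMM. Per kilobase, PDK4 made up 28.9% and 32.7% of the kinase sum in the iPSC clones, 10.3% in iNSLCs and 0.0376% in fibroblasts, and PDK1 led in every library, at 45.2% and 47.8% in the iPSC clones, 75.7% in iNSLCs and 80.5% in fibroblasts.

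The PFKFB enzymes set the level of fructose 2,6-bisphosphate, the activator of phosphofructokinase. PFKFB3, the form with the strongest kinase activity, lay at 27.6 and 27.1 CPM in the iPSC clones and 29.3 CPM in iNSLCs, against 12.8 CPM in fibroblasts. PFKFB3 (ENSSSCG00000011133, chr10:64776318-64859050) rose in iPSCs relative to fibroblasts (log2 ratio 1.10 ± 0.17 SE, adjusted p = 0.00536), and the ratio of iNSLCs over fibroblasts was 2.29 (95% counting interval 2.06 to 2.55). PFKFB2 differed so much between the iPSC clones, at 17.1 and 2.05 CPM, that its lower iPSC mean passed no test against iNSLCs (13.3 CPM) or fibroblasts (29.1 CPM). In iNSLCs it was 2.18-fold lower than in fibroblasts (ratio 0.459, 95% counting interval 0.408 to 0.514). PFKFB4 lay at 9.42 and 10.6 CPM in the iPSC clones, 14.4 CPM in iNSLCs and 11.2 CPM in fibroblasts, and passed neither test.

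In the pentose phosphate pathway, PGD of the oxidative branch and TKT of the non-oxidative branch differed in direction between iPSCs and fibroblasts. PGD, the 6-phosphogluconate dehydrogenase that makes NADPH, lay at 150 and 160.4 CPM in the iPSC clones, 138 CPM in iNSLCs and 294 CPM in fibroblasts. It fell in iPSCs relative to fibroblasts with TMM (log2 ratio -0.92 ± 0.12 SE, adjusted p = 0.00334), a call lost with total counts (-0.35, adjusted p = 0.0635), and the ratio of iNSLCs over fibroblasts was 0.471 (95% counting interval 0.454 to 0.488). TKT, the transketolase that links the pathway back to glycolysis, lay at 464 and 492 CPM in the iPSC clones, 341 CPM in iNSLCs and 276 CPM in fibroblasts. TKT (ENSSSCG00000021408, chr13:35347339-35377387) rose in iPSCs relative to fibroblasts (log2 ratio 0.79 ± 0.12 SE, adjusted p = 0.0059) and was higher than in iNSLCs (log2 ratio 0.49 ± 0.12 SE, adjusted p = 0.0458, lost without the low-count filter). Within a library, the TKT to PGD ratio of counts per kilobase was 1.24 and 1.23 in the iPSC clones, 0.990 in iNSLCs and 0.378 in fibroblasts.

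TALDO1, the transaldolase of the same branch, was lowest in iNSLCs. It lay at 204 and 208 CPM in the iPSC clones, 130 CPM in iNSLCs and 294 CPM in fibroblasts. It was higher in iPSCs than in iNSLCs in every fit (log2 ratio 0.66 ± 0.12 SE, adjusted p = 0.0215), whereas its log2 ratio against fibroblasts was -0.51 ± 0.11 (SE; adjusted p = 0.0181) with TMM and 0.06 with total counts. The ratio of iNSLCs over fibroblasts was 0.443 (95% counting interval 0.427 to 0.459), and 28.65% of the TALDO1 exon bases were shared with GATD1 on the opposite strand. Only 25.22% lay within the annotated TALDO1 and 59.82% in other annotated genes, so the row may not measure TALDO1. RPIA, which makes ribose 5-phosphate, was highest in iNSLCs, at 35.0 and 27.6 CPM in the iPSC clones, 67.7 CPM in iNSLCs and 28.7 CPM in fibroblasts. RPIA (ENSSSCG00000008207, chr3:57355975-57386967) was lower in iPSCs than in iNSLCs (log2 ratio -1.12 ± 0.18 SE, adjusted p = 0.0168), and the ratio of iNSLCs over fibroblasts was 2.36 (95% counting interval 2.20 to 2.53).

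**Figure D3:**
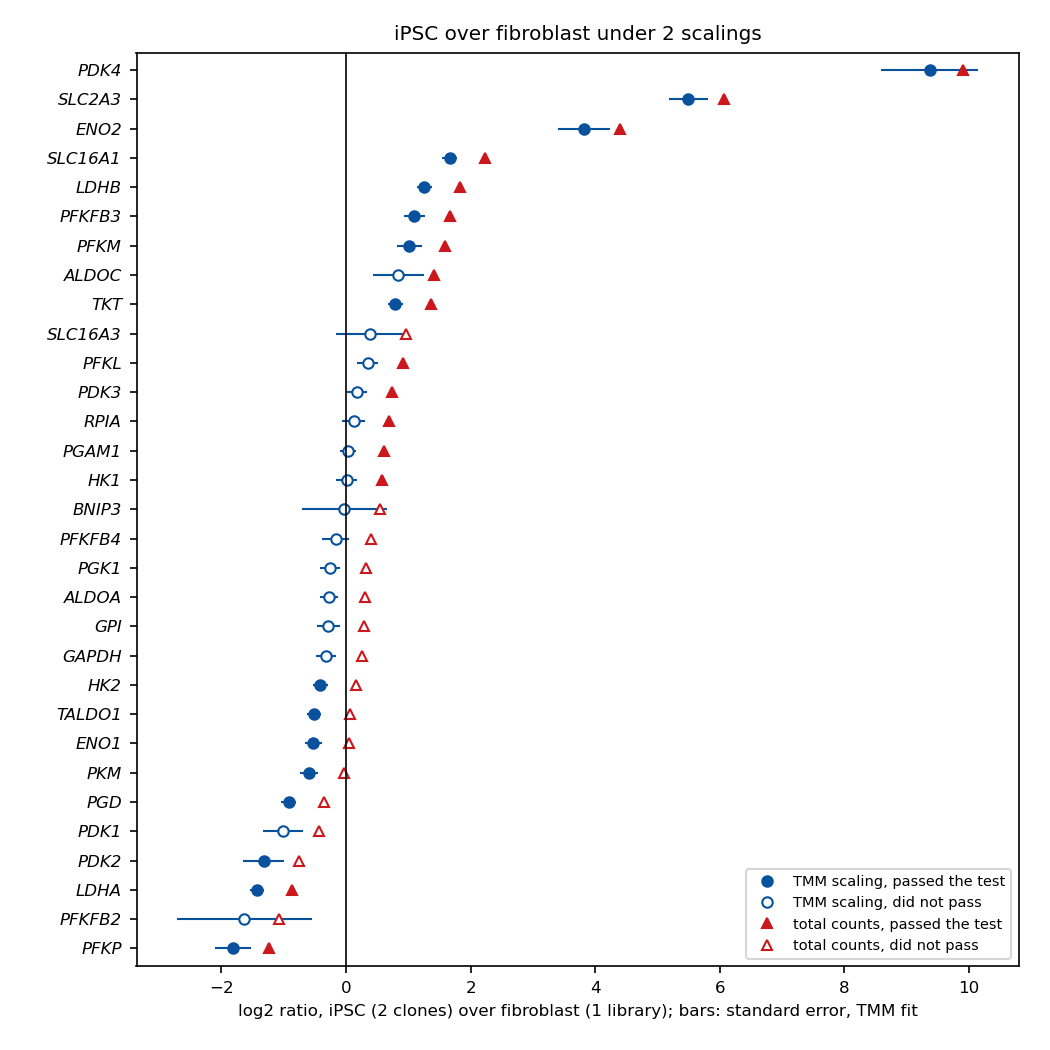
Log2 ratio of iPSCs (2 clones) over fibroblasts (1 library) for the 31 counted genes (rows), with TMM scaling (circles; bars are the standard error of the fit) and with total counts (triangles); filled symbols passed the test. The 8 genes filled on the right with TMM are also filled with total counts, whereas of the 8 filled on the left only PFKP and LDHA stay filled, and HK2, TALDO1 and ENO1 change sign.

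Between iPSCs and iNSLCs, 5 of the 31 genes were higher in iPSCs (PFKL, PFKP, LDHB, TKT and TALDO1) and 3 were lower (HK2, SLC16A1 and RPIA), beside 14.1% of all genes higher and 14.1% lower. With total counts PDK1 was added to the lower genes, which gave 5 higher and 4 lower beside 14.1% and 14.6% of all genes. PFKP, LDHB and TALDO1 were called higher and SLC16A1 and RPIA lower in all 5 fits. Over the 26 rows with at least 50% of their exon bases in the annotated gene, 4 were higher and 3 lower. The median log2 ratio of the 31 genes was 0.17, beside 0 over all genes tested, and it was 0.0045 without clone 2 and 0.26 without clone 1. The iNSLC library lay below all others for 10 of the 31 genes (HK1, PFKL, PFKP, ALDOA, PGAM1, ENO1, PKM, PDK3, PGD and TALDO1), beside 23.0% of all genes, and above all others for 6 (HK2, SLC16A1, PDK1, PFKFB3, PFKFB4 and RPIA), beside 25.8% of all genes.

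Between iNSLCs and fibroblasts, 6 of the 31 genes were at least 2-fold higher in iNSLCs (ENO2, SLC2A3, SLC16A1, PDK4, PFKFB3 and RPIA) and 5 at least 2-fold lower (PFKP, LDHA, PFKFB2, PGD and TALDO1), beside 28.5% and 19.4% of all genes. These are ratios of 1 library to 1 library with no replicate check, and their intervals cover counting error only. With total counts, 9 were at least 2-fold higher and only PFKP at least 2-fold lower, beside 41.5% and 11.2% of all genes. The median log2 ratio of the 31 genes was -0.17 with TMM and 0.42 with total counts, beside 0.10 and 0.68 over all genes tested.

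**Figure D4:**
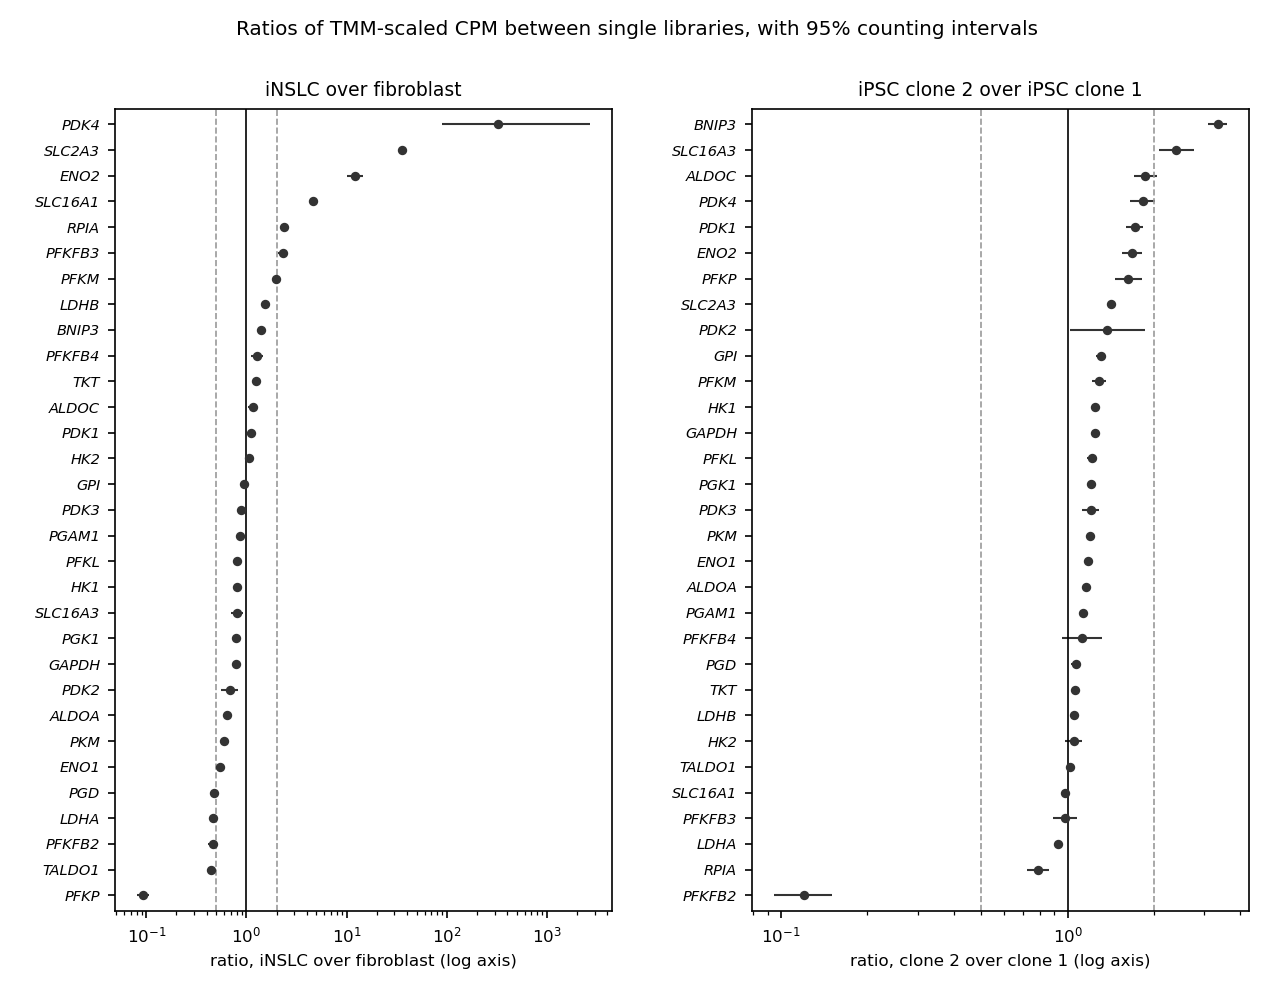
Ratio of TMM-scaled CPM of iNSLCs over fibroblasts (left) and of iPSC clone 2 over clone 1 (right) for the 31 counted genes (rows) on log axes; bars are 95% counting intervals and dashed lines mark 2-fold. PDK4, SLC2A3 and ENO2 lie farthest right and PFKP farthest left in the first panel, and in the second 26 of the 31 genes lie right of 1.

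The 2 iPSC clones were less than 2-fold apart for most of the 31 genes and at least 2-fold apart for 3. Below that limit, the ratio of clone 2 over clone 1 reached 1.87 for ALDOC and 1.83 for PDK4. BNIP3, a mitochondrial receptor for mitophagy, lay at 34.4 CPM in clone 1 and 114 CPM in clone 2, and the iNSLC (107 CPM) and fibroblast (76.3 CPM) levels lay between them. The ratio of clone 2 over clone 1 was 3.33 for BNIP3 (95% counting interval 3.10 to 3.59), 2.39 for SLC16A3 (2.08 to 2.75) and 0.120 for PFKFB2 (0.0949 to 0.151), on 405 counts of PFKFB2 in clone 1 and 94 in clone 2. Thus 2 of the 31 genes were at least 2-fold higher in clone 2 and 1 at least 2-fold lower, beside 3.65% and 5.39% of all genes. Clone 2 lay above clone 1 for 26 of the 31 genes, beside 55.6% of all genes, with a median log2 ratio of 0.27 beside 0.03 over all genes. The exceptions were LDHA, SLC16A1, PFKFB2, PFKFB3 and RPIA.

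The other listed genes of these pathways were read from the same fit, in which 29.6% of all genes rose and 27.5% fell against fibroblasts (44.9% and 16.8% with total counts) and 14.1% were higher and 14.1% lower against iNSLCs. Each count of listed genes is to be read beside these shares. Of 8 further pentose phosphate genes tested, 5 passed the test against fibroblasts, all of them lower, and with total counts 2 of these still did, while RPE, the epimerase of the pathway, was then called higher (log2 ratio 0.54, adjusted p = 0.0202). H6PD, a dehydrogenase of the endoplasmic reticulum that makes NADPH there, lay at 18.8 and 22.4 CPM in the iPSC clones, 61.1 CPM in iNSLCs and 92.5 CPM in fibroblasts. Its log2 ratio of iPSCs over fibroblasts was -2.16 (adjusted p = 0.000618), that of RBKS (ribokinase) -1.17 and that of SHPK (sedoheptulokinase) -1.46. Against iNSLCs, 1 of the 8 passed, H6PD, which was lower in iPSCs (log2 ratio -1.57).

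Of 18 further glycolysis and gluconeogenesis genes tested, 5 rose and 3 fell in iPSCs relative to fibroblasts, and 2 were higher in iPSCs than in iNSLCs. The phosphoglucomutase-family gene PGM2 lay at 166 and 151 CPM in the iPSC clones, 119 CPM in iNSLCs and 18.3 CPM in fibroblasts (log2 ratio of iPSCs over fibroblasts 3.12, adjusted p = 0.000299). HKDC1 and FBP1 also rose but stayed below 5 CPM in every library. Of 8 further carriers, 2 rose (SLC2A4 and the pyruvate carrier subunit MPC2) and 3 fell (SLC2A10, SLC16A7 and BSG) relative to fibroblasts, and 1 was higher (MPC2) and 2 were lower (SLC2A10 and SLC2A12) in iPSCs than in iNSLCs. The BSG log2 ratio against fibroblasts turned to 0.075 with total counts (adjusted p = 0.707), and DESeq2 did not call MPC2 (adjusted p = 0.077). Of 8 pyruvate dehydrogenase genes, 2 rose (DLAT, log2 ratio 0.69, and DLD, 0.41) and 2 fell (PDPR, -0.93, and PDHA1, -0.45) relative to fibroblasts. With total counts 4 rose, and the log2 ratios of PDPR and PDHA1 were then -0.36 (adjusted p = 0.0685) and 0.12 (adjusted p = 0.423). The DLD call was lost with RLE scaling (adjusted p = 0.0508), without the low-count filter (0.0947) and with DESeq2 (0.0859). Their log2 ratios against iNSLCs ran from -0.27 (PDPR) to 0.57 (PDHX).

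The hypoxia factors HIF1A, EPAS1 and ARNT were lower in iPSCs than in fibroblasts under either scaling. HIF1A lay at 410 and 377 CPM in the iPSC clones, 288 CPM in iNSLCs and 898 CPM in fibroblasts (log2 ratio of iPSCs over fibroblasts -1.19, adjusted p = 0.00161). EPAS1 (HIF-2α) lay at 12.9 and 14.3 CPM in the iPSC clones, 31.8 CPM in iNSLCs and 918 CPM in fibroblasts (log2 ratio -6.08, adjusted p = 0.000157) and was also lower in iPSCs than in iNSLCs (log2 ratio -1.23). Of the 9 factors and regulators, 2 rose and 4 fell relative to fibroblasts. ARNT, their common partner, and the oxygen-sensing prolyl hydroxylase EGLN1 fell (log2 ratios -2.19 and -1.42), whereas the hydroxylase EGLN3 lay at 262 and 257 CPM in the iPSC clones, 71.6 CPM in iNSLCs and 4.28 CPM in fibroblasts (log2 ratio 5.92). Of 21 further hypoxia targets tested, 2 rose (CA9 and ANGPTL4) and 14 fell relative to fibroblasts, and 4 rose and 11 fell with total counts, beside 29.6% and 27.5% of all genes with TMM and 44.9% and 16.8% with total counts. The lowest ratios were those of CA12, LOX, P4HA2 and ADM, with log2 ratios of -6.14, -5.16, -4.35 and -3.23. LOX and P4HA2 modify collagen, and the fibroblast markers moved with them, at a sum of 883 and 902 CPM in the iPSC clones, 52620 CPM in iNSLCs and 137400 CPM in fibroblasts, whose part in these values was not tested.

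Other marker lists moved as well. MKI67 and TOP2A, genes of dividing cells, summed to 986 and 1096 CPM in the iPSC clones, 977 CPM in iNSLCs and 190.4 CPM in fibroblasts, and both rose in iPSCs relative to fibroblasts. The blood marker PTPRC lay between 0.756 and 2.93 CPM in all libraries. The part of cell division in the metabolic gene values was not tested.

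The 3 rows set apart were as follows. The TPI1 row had 4 and 13 counts in the iPSC clones, 13 in iNSLCs and 12 in fibroblasts, and 78.45% of its exon bases were shared with other gene models, 76.02% with models on the opposite strand. Triose phosphate isomerase could therefore not be read from it. The row at SLC2A1 (GLUT1), which the identifier names P3H1, spanned chr6:168535654-168690034 and took in ZNF691, ERMAP, SVBP, C6H1orf50 and P3H1 as well. It lay at 417 and 402 CPM in the iPSC clones, 364 CPM in iNSLCs and 590.0 CPM in fibroblasts (log2 ratio of iPSCs over fibroblasts -0.53 with TMM and 0.04 with total counts). The ENO3 row also took in SPAG7, with 28.33% of its exon bases in the annotated ENO3, and lay at 16.6 and 17.7 CPM in the iPSC clones, 9.18 CPM in iNSLCs and 17.1 CPM in fibroblasts.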

How the data were processed

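The deposited values were read counts per gene and gene lengths. Per the submitters' processing notes, the authors trimmed reads with Trim Galore 0.4.0, aligned them with STAR 2.5.3a to Sscrofa11.1 and counted them with featureCounts 1.5.2; the counts were whole and not normalized. Whether strand was used in counting is not given in the sources, so reads of opposite, overlapping genes cannot be told apart. The 4 sample files were identical to the series table, and 0 per-sample columns were unused.

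Symbols came from the Ensembl identifier (14857 genes), or from position where a RefSeq gene and the row overlapped by at least 80% of the shorter and 50% of the longer span (1311 genes); 9712 had none. Of the 31 counted genes, 27 were named by identifier and 4 by position (SLC2A3, SLC16A1, BNIP3 and LDHB). SLC16A1 was an exception, because its row was much longer than the RefSeq gene and did not meet the overlap rule. It was assigned by hand from its position. LDHB was exempted from the rule that a symbol already given by identifier was not given again by position. All 31 passed the low-count filter. Of the other listed genes, PGM1, PRPS2, AK4, SOX2, SOX1, KRT5 and KRT14 were not found by name.

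The test was the two-sided edgeR 4.0.16 quasi-likelihood F test (R 4.3.3, limma 3.58.1) over 4 libraries in 3 groups, after filterByExpr, with TMM factors of 1.09 and 1.11 (iPSC clones), 1.11 (iNSLC) and 0.742 (fibroblast), and Benjamini-Hochberg adjustment over 15739 genes at 0.05. It had 1 residual degree of freedom (common biological coefficient of variation 0.198) and was tested on simulated data. Single libraries were compared by ratio, with exact conditional binomial 95% intervals for counting error only. DESeq2 1.42.0, RLE scaling, total counts and no low-count filter were alternatives. A level of 3 counts corresponds to 0.0648 to 0.127 CPM.

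The 34 genes, lists and markers were chosen with earlier results of these data known, and the lists came from textbook knowledge. The text names all 34 genes, with full statistics for those called or at least 2-fold apart in iNSLCs, and up to 4 called genes per further list by size of ratio, plus HIF1A and EPAS1. BSG, PAX6 and genes named beside a count were chosen after their values were seen, as were the 3 rows set apart. No sequences were used here, so a planned promoter motif search was not run. Some genes that these rules select are not reported here.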

Additional observations from a re-analysis of the deposited data

How the results depend on the processing

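With total counts, 14 genes rose and 2 fell in iPSCs against fibroblasts, the median log2 ratio was 0.55 (iPSCs over fibroblasts) and 0.42 (iNSLCs over fibroblasts), and 1 gene was at least 2-fold lower in iNSLCs than in fibroblasts, as was 1 at a 4-fold limit. The log2 ratio of iPSCs over fibroblasts reversed with total counts for HK2 (0.16), GPI (0.29), ALDOA (0.30), GAPDH (0.25), PGK1 (0.31), ENO1 (0.048), PFKFB4 (0.40), BNIP3 (0.55) and TALDO1 (0.060). Without the low-count filter it reversed for HK1 (-0.057) and PGAM1 (-0.037), and 3 genes were higher in iPSCs than in iNSLCs (PFKL and TKT lost). The cause was not tested. DESeq2 changed 5 calls and RLE scaling 1 of 62 for single genes. Taking the 34 rows as listed gave 7 that rose and 9 that fell against fibroblasts, and 5 and 3 against iNSLCs; this was chosen after seeing the data, as was keeping only the 26 rows with at least 50% of their exon bases in the annotated gene (7 and 6, and 4 and 3).

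Leaving out a clone left no degree of freedom for a test. The median log2 ratio of iPSCs over fibroblasts was then between -0.38 (without clone 2) and -0.056 (without clone 1), and that over iNSLCs between 0.0045 (without clone 2) and 0.26 (without clone 1). Without clone 1, PFKFB2 had log2 ratios of -3.82 against fibroblasts and -2.70 against iNSLCs, and without clone 2, PDK4 had 8.39. The order of isozymes was kept in 27 of 32 combinations of family and library with counts not divided by length. No paired analysis was possible because the iNSLC and fibroblast groups had 1 library each, so that the groups shared fewer than 2 replicate numbers. Depth limits PDK4 in fibroblasts (2 counts).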

Other observations

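Some genes of the further lists were lowest in the iNSLC library, as were 23.0% of all genes. PCK2, the mitochondrial enzyme that makes phosphoenolpyruvate, lay at 149 and 141 CPM in the iPSC clones, 16.2 CPM in iNSLCs and 255 CPM in fibroblasts, and was higher in iPSCs than in iNSLCs (log2 ratio 3.16, edgeR adjusted p = 0.00151). Of the 21 further hypoxia targets tested, 4 were higher and 3 lower in iPSCs than in iNSLCs, beside 14.1% of all genes each way. With total counts 4 were higher and 5 lower, beside 14.1% and 14.6%. The median log2 ratio of the 21 was -0.245 with TMM, beside 0 over all genes. Among these targets, STC2, a secreted glycoprotein, lay at 95.5 and 106 CPM in the iPSC clones, 12.4 CPM in iNSLCs and 156 CPM in fibroblasts (log2 ratio of iPSCs over iNSLCs 3.02). VEGFA, the angiogenic growth factor, lay at 154 and 88.1 CPM in the iPSC clones, 28.5 CPM in iNSLCs and 293 CPM in fibroblasts (log2 ratio of iPSCs over iNSLCs 2.08). The transcription factor BHLHE40 lay at 53.8 and 31.2 CPM in the iPSC clones, 14.1 CPM in iNSLCs and 278 CPM in fibroblasts (log2 ratio 1.59), and the collagen-modifying enzyme PLOD2 at 78.6 and 109.7 CPM in the iPSC clones, 39.6 CPM in iNSLCs and 316 CPM in fibroblasts (log2 ratio 1.25). VEGFA, BHLHE40 and PLOD2 were also lower in iPSCs than in fibroblasts (log2 ratios -1.28, -2.72 and -1.75, edgeR adjusted p = 0.0279, 0.0026 and 0.00294). These 5 genes were picked for being higher in iPSCs than in iNSLCs, so the low iNSLC level in all 5 follows from the choice. The targets that were lower in iPSCs than in iNSLCs are not named here. In all 5 genes the fibroblast library was the highest of the 4.

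Between the iPSC clones, 0 of the 21 further hypoxia targets tested were at least 2-fold apart in either direction. Over all genes, 3.65% were at least 2-fold higher in clone 2 and 5.39% at least 2-fold lower. The median log2 ratio of clone 2 over clone 1 was 0.147 for these targets, beside 0.03 over all genes. The genes named next were picked after their values were seen. VEGFA and BHLHE40 were lower in clone 2 than in clone 1 (ratios 0.572 and 0.579), whereas BNIP3 was 3.33-fold higher there, and BNIP3L, its close relative, had a ratio of 1.16.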
